A study of Mus musculus with 6 samples.

Results

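The comparison set the state of mouse induced pluripotent stem (iPS) cells on day 5 of rescue with human NAC1 against the state on day 0. It used 4 of the 6 arrays of the series, chosen by the day and clone in their titles: clone 5 and clone 7 on day 0, and the same clones on day 5, with 1 array per clone and day. All cells carried a null mutation of Nac1, the mouse gene also named Nacc1, and the day 0 cells were the same null lines at the start of the rescue. Each clone is 1 line made by the study's laboratory, and how the human gene was delivered was not given in the sources used here. No unrescued cells were sampled over the same days, so the rescue and the time in culture cannot be told apart.

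NAC1 is a nuclear protein with a BTB domain, which mediates binding between proteins, and it takes part in gene regulation in pluripotent stem cells. Mouse pluripotent cells are held in their naive state by transcription factors such as Oct4 (Pou5f1), Nanog, Sox2 and Klf4 and by the cytokine LIF, while FGF signalling through ERK favours exit from it. They grow as epithelial colonies joined by E-cadherin (Cdh1), and the repressor Zeb1 acts against that epithelial state.

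RNA was hybridised to Illumina mouse bead arrays with 45281 probes, and 37.0% to 40.1% of the probes were detected on the 4 arrays. All levels given are background corrected, quantile normalised signals on a log2 scale, and a change is the day 5 value minus the day 0 value of the same clone, averaged over the clones (n = 2 clones). The lowest detected signal, taken here as the detection limit, was 4.59 to 4.70 on the 4 arrays. Of 12030 genes tested, 512 passed at an adjusted p of 0.05 (limma, Benjamini-Hochberg over all genes), which is 4.26%, with 296 higher (2.46%) and 216 lower (1.8%). Both day 5 arrays lay on one side of both day 0 arrays in 48.7% of all tested genes, so such a separation of the days is common here. Detection of marker genes is given for the brightest probe of each. All 10 markers of pluripotent cells were detected on both days. Of 10 feeder fibroblast markers, Col1a1, Col1a2, Col3a1, Lum and Postn were detected on 0 of the 4 arrays, while Thy1 and Twist1 were detected on all 4. Pdgfra, Pdgfrb and Dcn were undetected on day 0 and each detected on 1 day 5 array. Dcn read 4.22 in clone 5 and 5.57 in clone 7 on day 5. The summed level of the list was 7.97 to 9.32 on day 0 and 8.48 to 8.81 on day 5. This sum includes the background signal of the undetected markers, so it is not a level of feeder cells. Among 6 markers of macrophages and blood, Cd68 was the detected one. Of 4 trophectoderm markers, Cdx2, Eomes and Elf5 were undetected and Tead4 was detected on all 4 arrays. Tead4 read 7.14 and 7.98 on day 0 and 5.89 and 6.59 on day 5 in clones 5 and 7.

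The 4 arrays gave no direct check of the rescue gene, because the array carries mouse sequence. The Nacc1 probe used read 7.08 in clone 5 and 7.34 in clone 7 on day 0, and 6.87 and 7.07 on day 5. These levels were above the detection limit in cells labelled null, and where the probe lies relative to the mutation is not known. Its change of -0.24 ± 0.17 (SE) did not pass (adjusted p = 0.472). Of the 4 Nacc1 probes on the array, 2 were detected on all 6 arrays.

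The genes that fell most encoded a vesicle transporter, basement membrane and matrix proteins, lipid and sugar enzymes and a Wnt processing enzyme. Slc32a1, which encodes the transporter that loads GABA and glycine into synaptic vesicles, read 10.46 and 9.93 on day 0 in clones 5 and 7, and 6.09 and 5.61 on day 5. Both day 5 arrays lay far below both day 0 arrays, and the clones changed nearly alike, by -4.37 and -4.33. The change was 20.4-fold (log2 -4.35 ± 0.24 SE, adjusted p = 0.00194), and on day 2 the signals stood between these levels, at 8.28 and 8.59. The promoter of Slc32a1 is shown because no other tested gene fell further. It is the 250 bases before the RefSeq start, chr2:158610508-158610757 on the plus strand of GRCm38.p6, and the capitals mark CACCTG, an E-box form that Zeb and Snail repressors bind, at positions -233 to -228 from the start.
Slc32a1: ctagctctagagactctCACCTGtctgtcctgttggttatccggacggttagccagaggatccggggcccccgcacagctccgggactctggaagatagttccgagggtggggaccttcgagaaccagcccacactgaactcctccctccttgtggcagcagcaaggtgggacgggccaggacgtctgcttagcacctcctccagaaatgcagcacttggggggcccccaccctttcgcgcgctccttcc

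A pair of basement membrane genes was among the strongest decreases. Col18a1, which encodes the chain of collagen XVIII, read 11.74 and 11.68 on day 0 and 8.30 and 8.64 on day 5 in clones 5 and 7. Nid1, which encodes the laminin-binding linker nidogen, went from 9.15 and 9.80 to 6.71 and 6.97. The changes were -3.24 ± 0.21 (SE) for Col18a1 and -2.63 ± 0.20 for Nid1, and for both genes the day 5 arrays lay below the day 0 arrays, as in 23.6% of all tested genes. The further probes of Col18a1 changed by -2.58 and -1.15, and that of Nid1 by -2.20. Of 21 tested basement membrane genes 0 rose and these 2 fell, 16 were below 0, and the median was -0.33 against 0.00 over all genes tested. These 2 are 9.52% of the list. The 4.26% that passed over all genes is the share to set beside the counts of each list below. The lists were written with earlier results of these data known.

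Of 25 tested matrix protease and inhibitor genes 3 fell and 0 rose, 14 were above 0, and the median was 0.05, with 0.16 in clone 5 and -0.23 in clone 7. The gelatinase gene Mmp2 read 9.68 and 9.96 on day 0 and 7.76 and 7.22 on day 5. Htra1, which encodes a secreted serine protease, went from 9.46 and 9.37 to 7.22 and 6.73. Both fell in each clone, by -1.92 and -2.74 for Mmp2 and by -2.24 and -2.64 for Htra1. The other call was Mmp14 (-0.84 ± 0.17), which encodes a membrane-bound protease that activates Mmp2. The Mmp14 call ended whichever of the 4 arrays was left out.

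Other strong decreases spanned several functions. Pla1a, a phosphatidylserine-specific phospholipase gene, read 10.30 and 10.32 on day 0 and 6.56 and 7.30 on day 5 (-3.38 ± 0.22), with further probes at -3.11 and -3.15. Gcnt3, a mucin glycosyltransferase gene, went from 8.86 and 8.29 to 5.06 and 5.29. Endod1, named for an endonuclease domain, went from 8.25 and 8.15 to 5.13 and 5.06. On day 5 the last 2 stood within about 1 log2 unit of the detection limit. Porcn, which encodes the acyltransferase that lipidates Wnt proteins, read 8.95 and 9.02 on day 0 and 6.84 and 6.60 on day 5 (-2.26 ± 0.23), and its further probe changed by -1.56. Dlgap1, a postsynaptic scaffold gene, fell by 2.84, Cyria, a gene of actin regulation through Rac1, by 2.69, and Sptbn4, a beta spectrin gene, by 2.21. The further probes of Dlgap1 changed by -2.35, -1.15 and -0.75.

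Of the 16 genes that led the increases, 7 were undetected on at least 1 day 0 array by the probe used. Atp12a, which encodes the catalytic subunit of a proton and potassium pump, was undetected on day 0 at 4.38 and 4.29, and read 5.74 and 5.67 on day 2 and 7.88 and 7.33 on day 5. Its rise was at least 7.53-fold (adjusted p = 0.00194). Dppa3, also called Stella, a maternal and germ cell gene, read 5.19 and 5.41 on day 0 and 7.65 and 8.02 on day 5 (2.54 ± 0.17). Both genes were higher on each day 5 array than on each day 0 array. Tes, which encodes the focal adhesion protein testin, rose from a measured level of 7.37 and 7.12 to 9.97 and 9.68, with nearly equal changes of 2.60 and 2.56 in the clones.

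Kit, the receptor of stem cell factor, read 7.08 and 6.85 on day 0 and 9.93 and 9.12 on day 5 (2.56 ± 0.38, adjusted p = 0.0203), and its further probe changed by 0.85. Gadd45g, a stress and differentiation gene, went from 6.23 and 6.03 to 8.61 and 9.27, and its further probe by 1.91. Plac8, a gene first described in placenta, read 6.91 and 4.96 on day 0 and 9.02 and 9.52 on day 5. The day 0 levels of Plac8 differed between clones and its changes were 2.11 in clone 5 and 4.56 in clone 7, and it did not pass without the day 0 array of clone 7. Cabs1, a calcium-binding gene of spermatids, rose by 2.62, Tex19.2, a gene of germ cells, by 2.12, Dgat2, an enzyme gene of triglyceride synthesis, by 2.22, and Col9a2, a cartilage collagen gene, by 2.05. Cntnap2, which encodes a neurexin-related adhesion protein, rose by 2.58 by the probe used, which was undetected on day 0, but its further kept probe was detected on both day 0 arrays and changed by -0.13.

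The promoter of Gadd45g, one of the genes that rose at least 4-fold, held a TATAAA box close to the start. The window is chr13:51846425-51846674 on the plus strand, and capitals mark CCAAT at -78 to -74 and TATAAA at -27 to -22.
Gadd45g: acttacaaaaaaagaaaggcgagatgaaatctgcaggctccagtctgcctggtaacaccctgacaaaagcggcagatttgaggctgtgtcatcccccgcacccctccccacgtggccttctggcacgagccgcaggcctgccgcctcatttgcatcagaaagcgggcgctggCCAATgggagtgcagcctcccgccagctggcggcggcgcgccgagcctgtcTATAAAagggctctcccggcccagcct
Searched on both strands over 250 bases, TATAAA was found in 11.6% of 198 promoters of higher genes, in 12% of 150 promoters of lower genes and in 6.49% of 8126 promoters of tested genes. CACCTG was found in 20.2%, 16.7% and 15.4%, CCAAT in 35.9%, 32.7% and 36.9%, and GGGCGG in 62.1%, 60.7% and 61.1% of the same sets. The median number of CG pairs per window was 13 for higher genes, 12.5 for lower genes and 16 for tested genes. A match is a description of the letters and shows no binding.

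**Figure D1:**
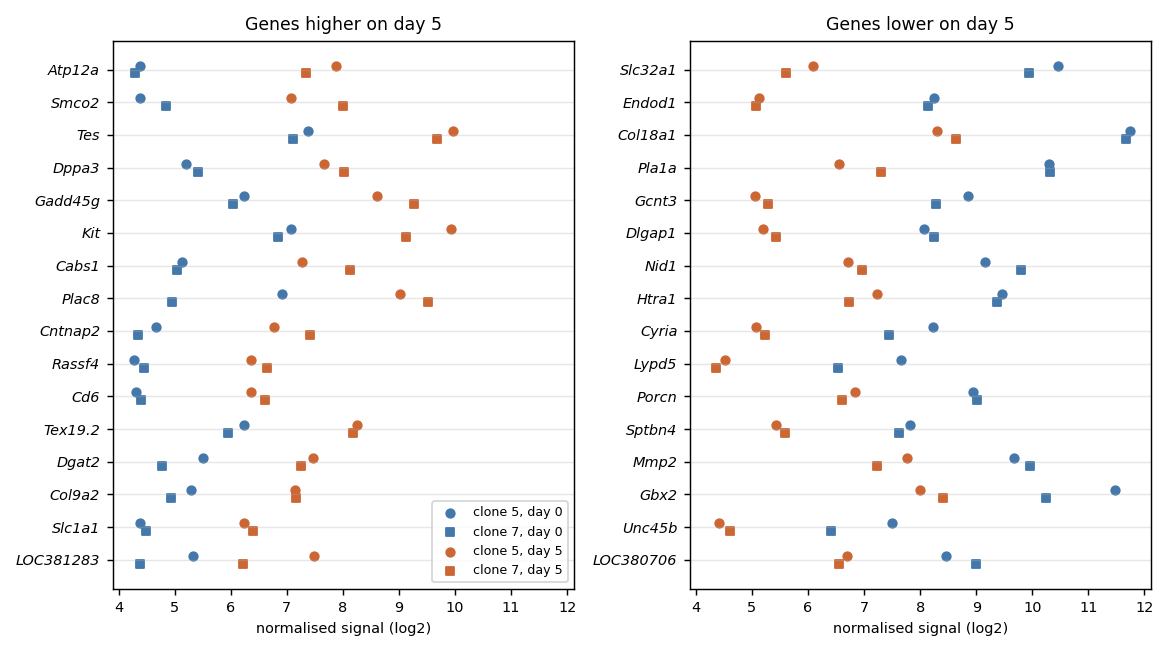
Normalised log2 signal of the 16 higher (left) and 16 lower (right) genes that passed and ranked first by the smaller of their clone changes. Each point is 1 array, circles are clone 5, squares clone 7, blue day 0 and orange day 5, and for each gene shown both day 5 points lie on one side of both day 0 points.

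These 32 genes were ranked by the smaller of their clone changes, so their agreement between clones was part of the choice. Plac8 was lost without the day 0 array of clone 7 and Gbx2 without the clone 5 array of that day, and the other 30 passed whichever of the 4 arrays was left out, whereas the 512 calls became as few as 138. In the full set, 242 of the 512 genes changed at least 2-fold in each clone and 48 at least 4-fold on average. The median level of the higher genes was 5.41 on day 0, 5.78 on day 2 and 6.82 on day 5, and that of the lower genes was 7.46, 6.82 and 6.08. The genes were chosen by their day 5 change, so the first and last of these levels are a description.

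**Figure D2:**
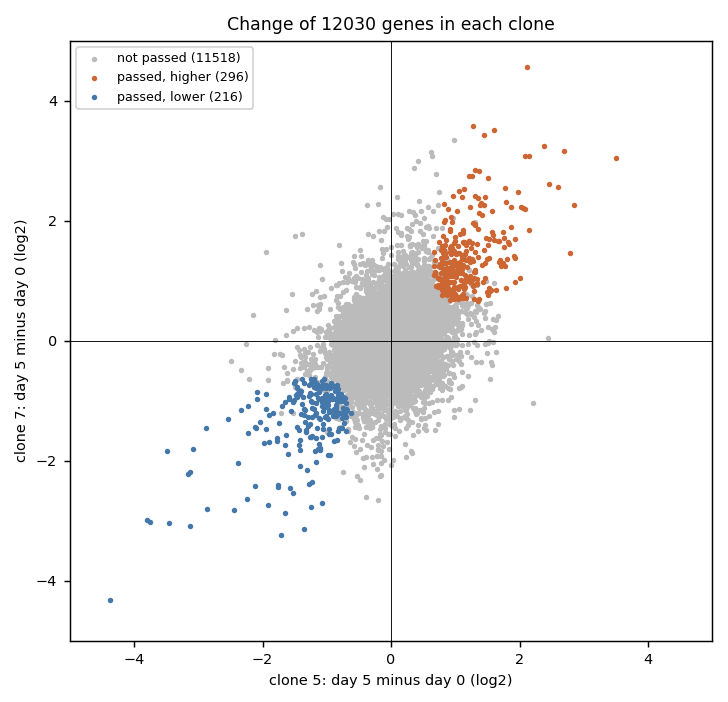
Change from day 0 to day 5 in clone 5 (x axis) and clone 7 (y axis), log2, for the 12030 genes tested. Orange points are the 296 genes that passed higher, blue the 216 that passed lower and grey the others, and genes with opposite changes in the clones lie among the grey points.

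As drawn here, the naive pluripotency list had members that passed downward and 0 that passed upward. This depends on which genes each list holds, and Dppa3, which rose, stood in the core pluripotency list. Of 20 tested naive and LIF pathway genes 0 rose and 4 fell, 14 were below 0, and the median was -0.31. Gbx2, a homeobox gene downstream of LIF, read 11.48 and 10.24 on day 0 and 8.0 and 8.40 on day 5 (-2.66 ± 0.39). Klf5, a Krüppel-like factor gene, went from 11.73 and 11.69 to 10.31 and 10.02 (-1.54 ± 0.17). Tfcp2l1, a naive transcription factor gene, fell by 1.05 and Il6st, the signalling receptor chain for LIF, by 1.0. Gbx2 was lost without the day 0 array of clone 5, and Tfcp2l1 and Il6st without either array of clone 7. Klf4, in the same list, had the opposite sign at 0.97 ± 0.30 and did not pass (adjusted p = 0.12), with 5.99 and 6.23 on day 0 and 7.15 and 7.01 on day 5.

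Of 26 tested core pluripotency genes 1 rose, Dppa3, and 0 fell, with a median of -0.04. Pou5f1 read 12.08 and 12.05 on day 0 and 11.32 and 11.49 on day 5 (-0.66 ± 0.19, adjusted p = 0.113). Nanog read 11.30 and 11.21, then 12.10 and 11.45 (0.52 ± 0.20, adjusted p = 0.188), and Sox2 8.95 and 8.66, then 8.52 and 8.28 (-0.40 ± 0.16, adjusted p = 0.217). None of these 3 factors passed. Zfp281, a zinc finger partner of the network, was at -0.54 and did not pass. Myc was not tested, since its better probe was detected on 2 of the 6 arrays. Of 12 primed epiblast genes and 6 genes of the 2-cell embryo 0 passed, with medians of 0.11 and 0.47. Their largest values were Zic2 at 0.85 (its further probe at 0.04), Etv4 at -0.78, Tcstv1 at 0.74 and Calcoco2 at 0.66.

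Of 16 tested feedback targets of FGF and ERK signalling 3 fell and 0 rose, 5 were above 0, and the median was -0.21. Dusp6, the phosphatase gene that switches ERK off, read 10.996 and 10.86 on day 0 and 9.02 and 9.16 on day 5 (-1.84 ± 0.18, adjusted p = 0.00764). Etv1, an ETS factor gene induced by ERK, went from 6.87 and 6.76 to 4.77 and 5.29, and Phlda1 from 8.76 and 9.41 to 7.35 and 7.59. The further probes of Dusp6 (-1.95 and -1.06) and Etv1 (-1.52 and -1.73) had the same sign. Each of the 3 that fell passed whichever of the 4 arrays was left out. Immediate early genes, which respond fast to growth signals, had 0 of 15 that passed, with Zfp36 at -0.77 and Egr1 at 0.72.

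Of 38 tested epithelial junction genes 4 rose, 1 fell and 25 were above 0, with a median of 0.24. Esrp1, which encodes a splicing regulator of epithelial cells, read 5.94 and 5.96 on day 0 and 7.62 and 7.26 on day 5 (1.49 ± 0.23). Cdh3, which encodes P-cadherin, went from 4.93 and 4.66 to 6.29 and 6.06. Cdh3 started near the detection limit, whereas Esrp1 was well above it. Cgn, the tight junction gene of cingulin, rose by 1.01 and Marveld3, also of the tight junction, by 0.99. All 5 calls of this list ended without the day 0 array of clone 7. Cdh1 read 8.58 and 8.92 on day 0 and 8.86 and 9.04 on day 5 and did not pass (0.20 ± 0.19, adjusted p = 0.606).

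The mesenchymal list had 1 of 16 members higher and 1 lower, with a median of -0.02. Vim, which encodes the filament protein vimentin, read 6.53 and 6.69 on day 0 and 5.22 and 5.21 on day 5 (-1.40 ± 0.29). Tgfb1, a cytokine gene undetected on day 0, was at least 1.74-fold higher. Both calls ended without either array of clone 7. Zeb1 read 7.04 and 7.54 on day 0 and 6.61 and 5.98 on day 5 and did not pass (-0.99 ± 0.27, adjusted p = 0.0956), with -0.43 in clone 5 and -1.56 in clone 7. In the actin and focal adhesion list 2 of 42 rose, Tes and Pdpn (1.33, podoplanin), and 3 fell, Myh9 (-1.01, non-muscle myosin), Msn (-0.97, moesin) and Lasp1 (-0.94). Of these 5, Tes alone passed without each of the 4 arrays.

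Of 28 tested members of the germline, piRNA and meiosis list 4 rose, 0 fell and 23 were above 0, with a median of 0.41. Syce3, a synaptonemal complex gene, read 5.46 and 5.24 on day 0 and 7.29 and 6.85 on day 5 (1.72 ± 0.19). Tdrkh, a tudor protein gene of the piRNA pathway, went from 6.21 and 5.44 to 7.77 and 7.25 (1.69 ± 0.17), and its further probe changed by 0.52. Tdrd12, of the same pathway, went from 9.0 and 8.03 to 9.82 and 10.31, so most of its change came from clone 7 (2.28 against 0.82). Smc1b, the meiotic cohesin gene, rose by 0.98 in each clone. Tdrd12 and Smc1b were lost without either array of clone 7, and Smc1b also without the day 0 array of clone 5.

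Neuronal genes passed in both directions. Of 32 tested synaptic and neuronal genes 5 rose and 2 fell, with a median of 0.12. Beside Cntnap2, the risers named were Cplx1, a complexin gene of vesicle fusion, from 5.81 and 5.20 to 7.33 and 6.91, and Homer2, a postsynaptic scaffold gene, from 6.79 and 6.73 to 7.71 and 8.21. Homer2 was lost without either array of clone 7. The 2 that fell were Slc32a1 and Dlgap1. Of 4 neuron markers, Snap25 was undetected on all 4 arrays, and Stmn2 read 9.67 and 9.81 on day 0 and 9.77 and 9.23 on day 5. Syn1 was detected on all 4, with 5.94 and 5.91 on day 0 and 5.81 and 5.82 on day 5. Tubb3 was detected on both day 0 arrays (4.97 and 5.42) and on 1 day 5 array (4.62 and 4.58 on that day).

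Transporters and channels passed in both directions too. Of 29 ion pump and channel genes 3 rose and 2 fell, with a median of 0.10. P2rx7, an ATP-gated channel gene, read 4.95 and 5.48 on day 0, 6.17 and 7.75 on day 2 and 6.71 and 7.20 on day 5 (1.74 ± 0.28), and its further probes changed by 0.66 and 0.38. Fxyd6, a regulator gene of the sodium pump, went from 11.54 and 11.82 to 9.96 and 9.36 (-2.02 ± 0.24). Kcnk1, a potassium channel gene, rose by 1.38 and Slc9a3r1, a scaffold gene of transporters, fell by 0.93. The Slc9a3r1 call ended whichever of the 4 arrays was left out, that of Kcnk1 without either array of clone 7 and that of P2rx7 without the day 0 array of that clone.

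Amino acid transporter genes split the same way, with 2 of 23 higher, 3 lower and a median of -0.09. The glutamate transporter gene Slc1a1, undetected on day 0 and, by the probe used, on day 2, read 6.23 and 6.39 on day 5 and was at least 3.07-fold higher, with its further probe at 1.56. Slc43a1, a transporter gene of neutral amino acids, rose from 5.13 and 5.71 to 6.83 and 7.03. Slc7a7, a transporter gene of cationic amino acids, fell from 8.66 and 7.48 to 5.78 and 6.02, by more than 1 log2 unit in each clone. Slc38a5, a glutamine transporter gene, fell by 1.66 and Slc1a3, a glutamate transporter gene, by 0.87, and the calls of both ended without either day 0 array.

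Among signalling pathways, Wnt genes had 1 of 30 higher and 3 lower, with a median of 0.04. Besides Porcn, the genes of the Wnt effector Tcf7l2 (-1.02) and the ligand Wnt6 (-0.92) fell, and Nkd2 (1.23), an antagonist of the pathway, rose. Porcn passed without each of the 4 arrays, and the other 3 were lost without either array of clone 7. In the Nodal and activin list 2 of 17 rose and 0 fell. Gdf1, a Nodal co-ligand gene, rose by 1.19. Neither of the 2 calls passed without the day 0 array of clone 7.

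BMP and Id genes had 0 of 19 that passed, with Bmp4 at -1.02 and Id1 at -0.72. Among 35 receptor tyrosine kinases and ligands Kit and Tek (1.29, the angiopoietin receptor) rose and Fgfbp1, an FGF carrier gene, fell from 6.23 and 7.98 to 4.88 and 4.84. Fgfbp1 was close to the detection limit on both day 5 arrays. Without the day 0 array of clone 7, Fgfbp1 and Tek did not pass.

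Lineage lists were short and, like the other lists, were written with earlier results of these data known. The share that passed was 28.6% for 14 trophectoderm and 16.7% for 6 mesendoderm genes. It was 12.5% for 8 primitive endoderm and 0% for 10 neuroectoderm genes, against 4.26% over all genes. These shares are a description, since Plac8 and Atp12a of the trophectoderm list were among the leading risers of the same data. Gata6, the endoderm factor gene, rose at least 2.07-fold from an undetected level on day 0 to 5.63 and 5.85 on day 5. It was the 1 of 8 primitive endoderm genes that passed, and it met the detection filter through its day 5 arrays alone. Gata4, Sox17 and Dab2, which mark the same lineage, were undetected on day 0 by their brightest probes, and Dab2 also on day 5. Gata4 (4.63 and 4.63) and Sox17 (4.61 and 4.55) were each detected on 1 day 5 array, close to the detection limit. Sox7, a further marker of this lineage, was detected on 1 array of each day. Of 14 trophectoderm genes 3 rose, Plac8, Atp12a and Sct (1.10, the hormone gene secretin), and Tead4, a trophectoderm factor gene, fell from 7.14 and 7.98 to 5.89 and 6.59. Gsc (1.20), a homeobox gene of the organizer, was the 1 of 6 mesendoderm genes that rose. Of 10 neuroectoderm genes 0 passed, with Ncam1 at -1.18 and Map2 at 1.07 (its further probe at 0.07). The calls of Gata6, Sct and Tead4 ended without the day 0 array of clone 7 and that of Gsc without either array of clone 5.

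Imprinted genes had 1 of 29 higher and 1 lower, which is 6.9% against 4.26% over all genes. Dlk1, a paternally expressed Notch ligand gene, read 7.53 and 5.82 on day 0 and 8.74 and 8.56 on day 5 (1.98 ± 0.39), and Peg3, a paternally expressed zinc finger gene, went from 10.47 and 10.55 to 8.64 and 9.34 (-1.52 ± 0.21). Peg3 passed without each of the 4 arrays, whereas Dlk1 was lost without 3 of them and passed without the day 5 array of clone 5. Of 52 genes of chromatin complexes 5.77% passed. Of these, Cbx8 (Polycomb, undetected on day 0, at least 1.67-fold) rose, and Phf19 (-1.10, Polycomb) and Mta3 (-0.90, NuRD) fell. All 3 calls ended without either day 0 array. Of 22 genes of Nac1 and its protein partners 0 passed, with 18 below 0 and a median of -0.21. Tfrc at 0.69 and B2m at 0.66 were the largest of 14 reference genes, of which 0 passed.

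Growth, stress and interferon lists had 2 members each that passed. The share was 3.33% of cell cycle, 6.45% of p53 and Gadd45 and 9.09% of interferon genes, against 4.26% over all genes. Gadd45a, a p53 target that is also listed with DNA demethylation, fell from 8.49 and 7.67 to 6.16 and 6.52 (-1.74 ± 0.28), the opposite direction to its relative Gadd45g, and the 2 were the only members of 31 p53 and Gadd45 genes that passed. Irf1, an interferon regulated transcription factor gene, went from 10.26 and 10.13 to 8.49 and 8.52 (-1.69 ± 0.17), and its 3 further probes changed by -1.59, -1.52 and -1.61. With Ifi35 (-1.20) it made 2 of 22 interferon response genes that fell, and 0 rose. Of 60 cell cycle and replication genes 0 rose and 2 fell, E2f2 (-1.05) and Ccnd3 (-0.97), with 42 below 0 and a median of -0.13. Neither passed without either day 0 array, and Gadd45a and Ifi35 were lost without the day 0 array of clone 5.

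Metabolic lists differed in how many members lay above 0. Among 40 serine synthesis and ATF4 targets, 28 were below 0 (median -0.15). Cth (-1.45, an enzyme gene of cysteine synthesis) and Trib3 (-0.92) fell and Vldlr (1.26) and Ddit3 (0.82) rose. The further probe of Ddit3 changed by 0.15. In the cholesterol and fatty acid list 2 of 34 rose, among them Hsd17b7 (0.92), Ebp (-0.82) fell, and 20 were above 0. Without the day 0 array of clone 7, Cth was the 1 of these 6 named genes that passed. Of 45 lysosome and tetraspanin genes 31 were below 0 (median -0.18) and 6.67% passed, against 4.26% over all genes. Hexa (1.02) and Tspan4 (1.02) rose and Scarb2 (-0.85) fell. The further probe of Tspan4 changed by 0.07 and that of Scarb2 by -0.25. Of 44 folding genes of the endoplasmic reticulum 2.27% passed, where Fkbp10 (-1.25) fell. None of these 4 passed without the day 0 array of clone 7. In the glycolysis and hypoxia list 0 of 34 passed and 25 were above 0, and the list medians were -0.01 for clone 5, 0.49 for clone 7 and 0.22 for their mean. Its largest values lay mostly in clone 7, with Ndrg1, a gene induced by hypoxia, at 0.63 in clone 5 and 3.09 in clone 7, and Ankrd37 at 0.11 and 2.12. Without either array of clone 5 the fitted values were 2.81 and 2.75 for Ndrg1 and 1.90 and 1.83 for Ankrd37. Without either array of clone 7 they were 0.91 and 0.97 for Ndrg1, and 0.33 and 0.40 for Ankrd37. These fitted values also use the day 2 arrays, so they differ from the changes of single clones. In the respiratory chain 0 of 61 passed and 41 were below 0, with values from -0.51 to 0.36.

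**Figure D3:**
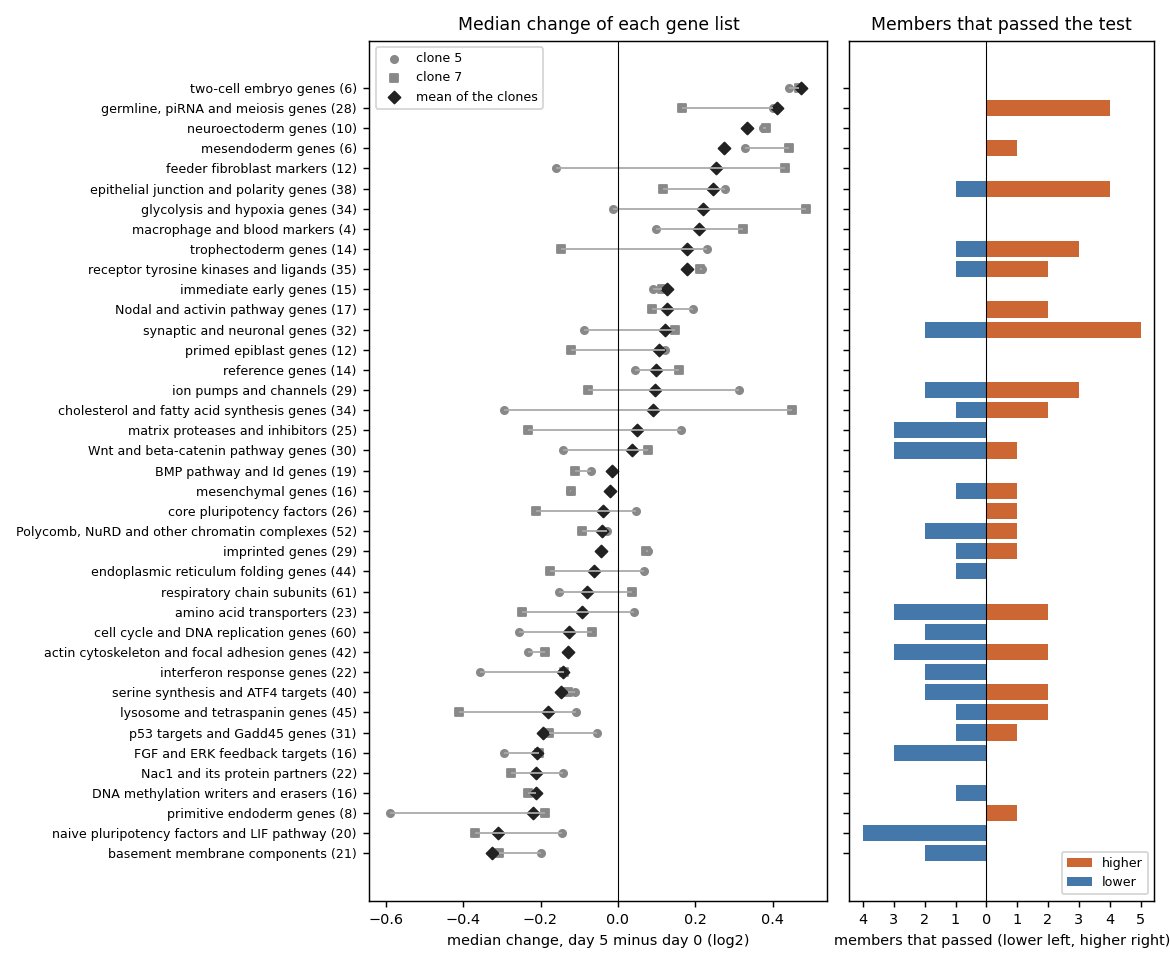
Median change from day 0 to day 5 (log2) of each gene list, with the number of tested members in brackets (left; circles clone 5, squares clone 7, diamonds the mean of the clones), and the number of members that passed lower (blue) or higher (orange; right). The 20 naive and LIF genes had 4 lower and the 28 germline genes 4 higher, and the list medians of the mean of the clones lie between -0.33 and 0.47.

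Histone genes were singled out after their values were seen. Replication-dependent histones are made in S phase from clustered genes whose copies are nearly identical, so a probe may also read other copies and each single gene is uncertain. Of 11 tested H4 genes 7 rose and 0 fell, and all 11 were above 0, with a median of 1.19. H4c3 read 4.86 and 4.79 on day 0 and 5.98 and 6.43 on day 5 (1.38 ± 0.21), and H4c12 went from 5.74 and 6.17 to 7.21 and 7.45 (1.38 ± 0.24). H4c1, at higher signal, went from 8.55 and 8.68 to 9.59 and 10.13 (1.25 ± 0.23).

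Of 9 tested H3 genes 4 rose, H3c4 (1.08 ± 0.17), H3c1 (1.07), H3c6 (1.0) and H3c7 (0.91), with a family median of 0.65. In the other families 1 of 10 H2B genes rose (H2bc21, 1.02 ± 0.22, median 0.00), 0 of 15 H2A genes (median 0.21) and 0 of 3 H1 genes. On day 0, 5 of the 15 H2A genes read over 13, and 0 genes of the other families did. The highest signal of the arrays was 14.13. Whether a level that high limited a rise was not tested. The difference between the families was not tested. Of 9 other histone genes H1f0 fell (-0.96 ± 0.18) and the rest did not pass, with values from -0.76 for H2ax to 0.60 for H4f16, an H4 gene undetected on day 0 by the probe used (0.84 in clone 5 and 0.35 in clone 7). H4c1 stood at 9.15 and 10.13 on day 2, and H4c12 at 6.24 and 7.35. Without the day 0 array of clone 7, 0 of the 11 H3 and H4 genes passed, and 8 passed without the clone 5 array of day 0. Leaving out a day 5 array kept 3 (clone 5 left out) or 2 (clone 7 left out). Their values moved by less than 1.5 times in each of these cases.

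Promoters of H3 and H4 genes are shown because 11 of the 20 tested rose. H4c12 lies on the minus strand at chr13:21750554-21750803, and H3c4 on the plus strand at chr13:23575513-23575762. Capitals mark the TATAAA, the CCAAT and the GGGCGG motif or their reverse complements. TATAAA lies at -16 to -11 in H4c12, and in H3c4 at -168 to -163, at -161 to -156 and, on the other strand, at -32 to -27.
H4c12: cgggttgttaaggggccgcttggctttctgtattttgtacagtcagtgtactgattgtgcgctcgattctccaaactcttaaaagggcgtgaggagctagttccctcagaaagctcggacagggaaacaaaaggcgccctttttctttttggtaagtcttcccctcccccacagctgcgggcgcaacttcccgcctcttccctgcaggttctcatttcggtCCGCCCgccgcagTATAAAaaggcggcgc
H3c4: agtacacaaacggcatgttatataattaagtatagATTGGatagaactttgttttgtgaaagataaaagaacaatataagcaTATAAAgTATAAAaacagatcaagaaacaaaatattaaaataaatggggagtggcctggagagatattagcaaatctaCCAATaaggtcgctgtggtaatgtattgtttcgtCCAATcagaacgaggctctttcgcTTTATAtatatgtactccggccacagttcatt
Of 17 H3 and H4 promoters found for the 20 tested genes, 41.2% held TATAAA and 52.9% CCAAT, against 6.49% and 36.9% of the promoters of tested genes.

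**Figure D4:**
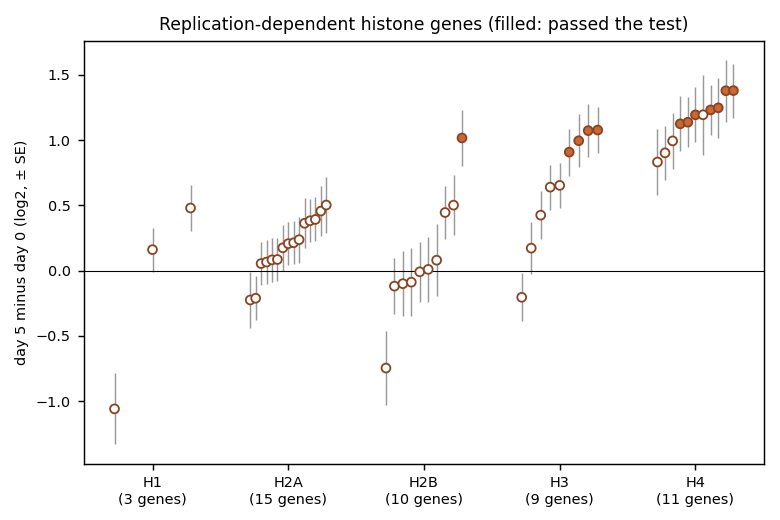
Change from day 0 to day 5 (log2, y axis) of each tested replication-dependent histone gene, by family, with bars for ± SE of the fit; filled points passed the test. All 11 H4 points lie above 0, whereas H2A, H2B and H1 points lie on both sides.

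Most of the histone genes lie on chromosome 13, which had 23 higher and 5 lower genes among 364 tested (7.69% against 4.26% over all). Of the 23, 11 were the histone genes, whose probes may read each other's copies, and without the 39 replication-dependent histone genes the share was 5.23% of 325, within the range of the other chromosomes. The X chromosome had 17 higher and 6 lower among 336 (6.85%), and chromosome 14 had 8 and 12 among 332 (6.02%). On the other chromosomes 2.88% to 5.36% passed. The median change of the genes was 0.07 on both chromosome 13 and X.

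Genes that crossed the detection limit were counted by detection alone. A gene was counted as gained where a probe had a detection p-value under 0.01 on both day 5 arrays and no probe of it had one under 0.05 on either day 0 array, and as lost in the reverse case. By this rule 116 genes were gained and 15 were lost. The gained genes reached at least 1.55-fold at the median, 21 at least 2-fold and 3 at least 4-fold, and the lost genes at least 1.81-fold at the median. At the level of probes, 573 went from 0 to 2 detected arrays and 202 from 2 to 0, while 14607 were detected on all 4 arrays. Clone 5 had more detected probes on day 5 than on day 0 (40.1% against 37.0%), and clone 7 about as many (37.6% against 37.4%), and the part of this in the larger number of gained genes was not tested.

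On day 2, the probes of the gained genes were detected on both arrays in 31 cases, on 1 array in 42 and on neither in 43. Atp12a was already detected on both day 2 arrays. Cd6, a surface receptor gene of T cells, was at least 3.45-fold higher, and its further probes changed by 1.86 and 1.58. Slc1a1, Cdhr1 (at least 2.87-fold, a photoreceptor cadherin gene) and St3gal6 (at least 2.82-fold, a sialyltransferase gene) were undetected on both days 0 and 2 by the probe used. Pifo, a cilium gene, was at least 2.97-fold higher, and the unannotated 2610528A11Rik at least 4.47-fold, with 5.96 in clone 5 and 7.75 in clone 7 on day 5. The transcripts LOC665506 and LOC673556 reached at least 2.21-fold and 4.32-fold.

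Of the 15 lost genes, 10 were still detected on both day 2 arrays and 5 on 1. Lypd5, a gene of the LY6 family of surface proteins, read 7.65 and 6.54 on day 0, 5.21 and 5.77 on day 2 and 4.53 and 4.35 on day 5, at least 5.51-fold lower. Unc45b, the gene of a myosin chaperone, read 7.49 and 6.41, then 6.83 and 6.34, then 4.40 and 4.61, at least 4.99-fold lower. So Lypd5 was already low on day 2 and Unc45b was still near its day 0 level. Samd9l, a gene induced by interferon, was at least 2.76-fold lower, Aox3, an aldehyde oxidase gene, 2.83-fold, and C1ql2, a synaptic complement-like gene, 2.59-fold. The others named were Napsa (1.96-fold, an aspartic protease gene), Vwa5a (1.99-fold), Tmem106a (1.72-fold), 9330161M17Rik (1.81-fold) and 5330420J21Rik (1.69-fold).

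**Figure D5:**
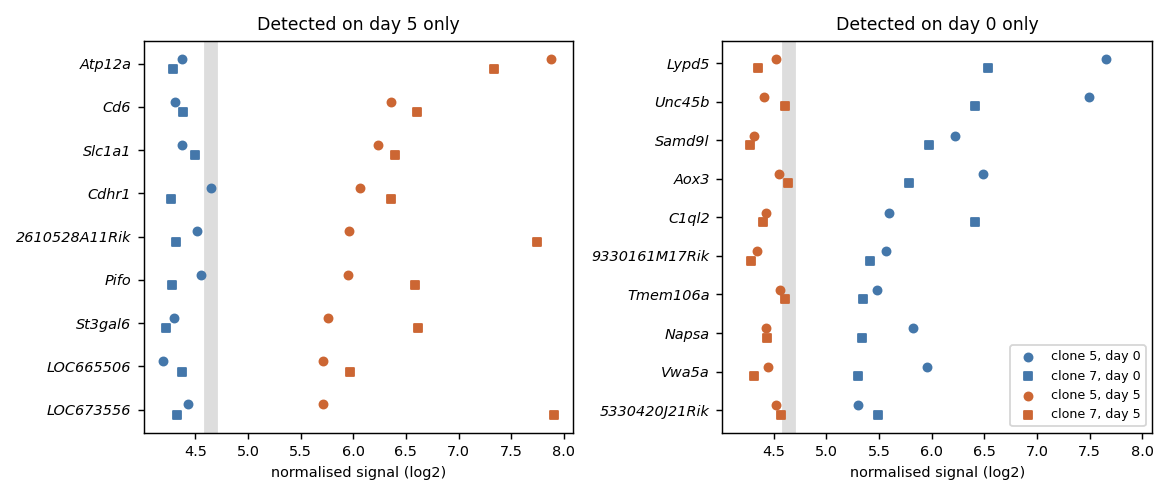
Normalised log2 signal of 9 gained (left) and 10 lost (right) genes among those furthest above the detection limit, 1 point per array (circles clone 5, squares clone 7, blue day 0, orange day 5). The grey band is the range over the arrays of the lowest detected signal, 4.59 to 4.70, and the undetected points lie in it or to its left.

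The authors' deposited table of changed probes lists 698 probes of 628 genes, 353 higher and 345 lower on day 5. Of the genes in the authors' deposited table, 280 passed here, which is 44.6% of its genes and 54.7% of the 512. Both lists use the same arrays, so the overlap is no independent evidence. Their thresholds also differ. The authors' deposited table holds unadjusted p-values up to 0.05 and absolute log2 changes of at least 1 on the authors' scale. The 512 passed an adjusted p of 0.05 with no limit on the size of the change. Of the probes in the authors' deposited table, 574 met the detection filter used here and 80 were detected on none of the 4 arrays. The largest decreases of the authors' deposited table without a call here were Chga (-5.24), Fsd2 (-4.98), Plekhg3 (-4.76), Cyb5r2 (-3.70), D030067F24Rik (-3.66) and 4933439G19Rik (-3.65). The largest increases were Nr5a2 (5.62), Abcc8 (4.87), A230102B06Rik (4.05), Arhgap26 (4.01), Dtx4 (4.0) and Ankrd61 (3.88). Of these genes, Fsd2, Cyb5r2, D030067F24Rik, A230102B06Rik, Dtx4 and Ankrd61 were not tested. The listed probes of Chga, Plekhg3 and Nr5a2 did not meet the detection filter either. These 12 probes had raw signals of 91.4 to 113 on the 4 arrays, whose medians over all probes were 94.6 to 95.9. On the scale used here the same probes changed by -0.28 for Chga, 0.26 for Nr5a2, -0.19 for Plekhg3 and 0.74 for Abcc8.

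Agreement between probes was checked for the called genes. Of 202 further detected probes of 154 called genes, 194 had the same direction as the probe used and 8 the opposite. The median ratio of their change to that of the probe used was 0.745, and 52 showed less than 0.5 of it. The probe with the highest signal was used for each gene.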

How the data were processed

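The 6 arrays of 1 bead chip were read, and 4 of them, days 0 and 5 of both clones, make the comparison; the 2 day 2 arrays entered the fit. The deposited probe table holds average bead signals as intensity and a detection p-value per probe, per the file headers, and was deposited as non-normalised data. The log2 series values were deposited after processing by the authors, and the authors' deposited table of changed probes gives log2 values and unadjusted p-values. The software used by the authors was not given in the sources used here. Signals were corrected with normexp from the detection p-values (offset 16), quantile normalised and log2 transformed with limma 3.58.1 (R 4.3.3). A probe was kept if both arrays of any day detected it at p under 0.05 (17471 probes), and the probe with the highest mean stood for each gene. So a gene could be kept through the day on which it was high. Of the 512 calls, 58 were undetected on day 0 and 12 on day 5 by the probe used. The limma model had day and clone (2 residual and 5.24 prior degrees of freedom), because same-numbered arrays are the same cell line. Deviations of the clones from the day means correlated at -0.07 between days 0 and 5, at 0.36 between days 0 and 2 and at 0.34 between days 2 and 5. The number of calls depended on the clone term, with 512 with it and 208 without it. The 2 arrays of a day are 1 culture of each clone as far as the labels say. The p-values rest on how far the 2 clones differed in their changes over days 0, 2 and 5. That spread may be technical, and the number of arrays limits the precision.

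Bounds ("at least") compare the bright day's mean with the higher of the lowest detected signal and the probe's own signal on the dim day. Of the probe symbols, 27740 were current in a RefSeq table of GRCm38.p6, 8037 matched through a synonym and 9504 kept the deposited name. Promoter sequences are RefSeq's, from the same build. Named genes are 8 set genes, the 16 higher and 16 lower calls ranked by the smaller of their clone changes, and the 10 gained and 10 lost genes furthest above the detection limit. Also named are called members of each list (up to 6, or up to 2 largest values where none passed). The last are the 6 largest changes each way of the authors' table that did not pass or were not tested. The members, lists and tests were chosen with earlier results of these data known. Some genes that this rule selects are not reported here. The procedure was tested on simulated data. Alternatives covered the block (with statmod 1.5.0 for a random one), normalization, filters, probes, thresholds and each array left out.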

Additional observations from a re-analysis of the deposited data

Results flagged for a closer look

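In all, 8 genes changed at least 2-fold in opposite directions in the clones, and none passed, and in each case the difference between the clones was not tested. Thy1, a surface marker of fibroblasts among other cells, changed by -1.39 in clone 5 and 1.78 in clone 7. Lefty2, a Nodal antagonist gene, changed by -1.50 and 1.75. Cdkn1c, an imprinted cell cycle inhibitor gene, changed by -1.94 and 1.47, from 9.99 and 6.57 on day 0 to 8.05 and 8.04 on day 5. Dok2 changed by -1.11 and 1.26, and Egln3, an oxygen sensing hydroxylase gene, by -1.08 and 1.02. In the other direction Svop changed by 2.20 in clone 5 and -1.03 in clone 7, Slc17a5 by 1.06 and -1.13, and Rbm14 by 1.23 and -1.16. These genes were named after their values were seen.

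Of 39 lists, 13 had medians of opposite sign in the clones, 2 of them at least 0.5 apart and the others up to 0.499 apart, and the differences were not tested. For feeder fibroblast markers the median was -0.16 in clone 5 against 0.43 in clone 7, with 0 of 12 members that passed, Igfbp4 at 0.94 and Fbln2 at -0.61. For cholesterol and fatty acid synthesis genes it was -0.29 in clone 5 against 0.45 in clone 7.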

How the results depend on the processing

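The 512 calls (296 higher, 216 lower) became 208 (120 and 88) with no replicate block, 318 (177 and 141) with clone as a random block, 127 (62 and 65) with no background correction and 301 (146 and 155) with detection on all 6 arrays. They became 242 (141 and 101) at 2-fold or more in each clone and 1023 (576 and 447) at an adjusted p of 0.1. With only the 4 arrays of days 0 and 5 there were 354 (211 and 143), and with an offset of 50 352 (190 and 162). Median scaling gave 487 (320 and 167) and shifted the median of all genes by 0.04. By limma, 0 genes passed with the deposited series values and 0 with every gene tested regardless of detection, and an unpaired test of 2 against 2 arrays passed 0. An unadjusted p under 0.05 was reached by 2094, 3742 and 1364 genes there, against 2575 in the fit reported. Leaving out 1 array gave 138 to 672 calls (68 to 408 higher, 70 to 264 lower): 138 without the day 0 array of clone 7 and 250 without the day 5 array of clone 7. Of 124 genes under the naming rule that passed, 0 changed sign under any setting. These genes were chosen because they passed on the same arrays, so this count was largely set by the choice. Egr1, which did not pass, rose by 0.14 in clone 5 and by 1.31 in clone 7. Its fitted value was -0.21 when clone 7 was left out on day 5, and 1.66 when clone 5 was. With 1 array of day 0 or 5 left out, the clone difference was fitted from the other days, day 2 among them. Such a value is therefore not the change of a single clone. Of the 32 genes with the largest changes, 28 passed with no replicate block.

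The 116 gained and 15 lost genes became 385 and 117 with detection at p under 0.05 on the bright day, 34 and 12 at 0.001, and 53 and 6 with no probe under 0.1 on the dim day. At least 2-fold above the lowest detected signal they were 17 and 4, and where the rule was applied to probes 164 were gained and 29 lost. Leaving out 1 array, chosen after seeing the data, gave 200 to 314 gained and 29 to 85 lost, since fewer arrays then had to meet the rule. Signals near the array medians limit what can be said of dim genes.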
